A study of Mus musculus with 6 samples.

Results

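The genes described here encode the machinery of the DNA replication fork and the enzymes that supply it with nucleotides: DNA polymerases and primase, the sliding clamp and its loader, the proteins that finish the lagging strand, the factors that switch on the replicative helicase, and the chromatin proteins that follow the fork. They were chosen by gene symbol from a list of 36, and all 36 were found among the 18238 genes tested and passed the filter on dim signals, so none was left out. Whole kidneys were profiled from BALB/c males, 10 to 12 weeks old, each after 26 min of clamping of a renal pedicle followed by reperfusion, with removal of the kidney on the other side. At 24 h after injury the mice received either m4PTB, methyl 4-(phenylthio)butanoate, an inhibitor of histone deacetylases, at 100 mg per kg, or its vehicle, an aqueous solution of 20% 2-hydroxypropyl-β-cyclodextrin. Kidneys were taken 12 h later. There were 3 vehicle and 3 m4PTB arrays, all from kidneys picked for a similar degree of injury by serum creatinine, urea nitrogen and Kim1 expression, and no uninjured kidney was analysed here.

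At a replication fork the leading strand is copied by polymerase epsilon and the lagging strand by polymerase delta, starting from primers that polymerase alpha and primase lay down. Clamp, loader, single-strand binding protein, flap endonuclease and ligase are used in every round, and deoxynucleotides come from ribonucleotide reductase and the thymidylate pathway. Many of these genes are transcribed periodically under E2F transcription factors as cells enter S phase. After ischemic injury, surviving tubule cells of the kidney are known to re-enter the cell cycle and to replace lost neighbours.

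The promoters of the members are shown as a description of the gene list. RefSeq promoter sequences (GRCm38.p6, 250 bases before to 50 after the transcript start, from the reference strain and not from BALB/c) matched 31 of the 36 by symbol. The letters TTCCCGC or TTGGCGC, both forms of the E2F site, were searched on both strands with a promoter that holds both counted once. At least 1 of them was found for 18 of the 31 members (58.1%), against 7.79% of all 27025 genes with a promoter in the table and 9.94% of the 17491 protein-coding ones. CCAAT was found for 17 members (54.8%) against 41.1% of all genes, and TTTGAA, the letters of a cell cycle homology region, for 6 (19.4%) against 20.2%. A match is a description of the letters and not a bound site. These shares belong to the choice of the list, use no array value and say nothing of a cause on these arrays. The members whose stretches are shown were picked without a set rule, and 13 of the 31 had no E2F-type match. The stretches below run from 180 bases before to 20 after the start, 5′ to 3′ on the strand of the gene, with E2F-type letters in capitals. They are from Pola1 (chrX:93632136-93632335, minus strand), Rrm1 (chr7:102441515-102441714, plus), Chaf1a (chr17:56040236-56040435, plus), Dtl (chr1:191575525-191575724, minus), Rfc3 (chr5:151651189-151651388, minus) and Rrm2 (chr12:24708074-24708273, plus).
Pola1: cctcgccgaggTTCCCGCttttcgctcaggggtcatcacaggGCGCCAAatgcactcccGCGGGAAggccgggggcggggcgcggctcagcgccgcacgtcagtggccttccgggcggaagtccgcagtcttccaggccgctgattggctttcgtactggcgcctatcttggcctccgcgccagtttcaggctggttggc
Rrm1: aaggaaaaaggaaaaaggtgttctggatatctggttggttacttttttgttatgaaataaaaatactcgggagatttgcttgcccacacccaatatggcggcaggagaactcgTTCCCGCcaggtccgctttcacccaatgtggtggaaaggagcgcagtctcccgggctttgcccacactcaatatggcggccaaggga
Chaf1a: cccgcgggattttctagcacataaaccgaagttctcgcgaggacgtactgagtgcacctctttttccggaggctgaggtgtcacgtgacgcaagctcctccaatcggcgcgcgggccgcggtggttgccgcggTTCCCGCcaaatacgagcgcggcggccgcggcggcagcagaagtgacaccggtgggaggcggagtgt
Dtl: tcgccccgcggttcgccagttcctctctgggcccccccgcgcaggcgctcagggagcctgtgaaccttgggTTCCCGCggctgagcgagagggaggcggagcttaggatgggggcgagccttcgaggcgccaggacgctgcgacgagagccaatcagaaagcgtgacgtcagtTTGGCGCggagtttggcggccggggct
Rfc3: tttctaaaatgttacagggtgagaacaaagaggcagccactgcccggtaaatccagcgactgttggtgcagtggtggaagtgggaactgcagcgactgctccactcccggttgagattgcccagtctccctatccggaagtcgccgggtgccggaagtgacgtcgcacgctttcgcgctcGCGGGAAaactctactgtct
Rrm2: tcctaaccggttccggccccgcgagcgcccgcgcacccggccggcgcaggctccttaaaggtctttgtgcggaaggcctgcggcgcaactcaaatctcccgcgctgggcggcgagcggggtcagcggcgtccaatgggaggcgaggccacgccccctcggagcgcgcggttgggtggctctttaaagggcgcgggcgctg
The Pola1 stretch holds 3 matches and that of Dtl holds 2, while that of Rrm2 holds 0. Rfc3, the member that was lower in m4PTB kidneys (below), carries a match at its transcript start. The median log2 difference was 0.33 over the 18 members with a match and 0.26 over the 13 without, and their ranges, -0.19 to 0.62 and 0.16 to 0.73, overlapped.

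Labels and arrays were checked before the comparison. Proximal tubule markers were strong on every array (5 of 5 above the background limit, taken as the 90th percentile of negative control signals), whereas 0 of 3 T and NK cell, 0 of 2 B cell and 0 of 2 neutrophil markers were above it on at least 3 arrays. Vehicle replicate 3 stood apart: its median negative control signal was 5.56 against 5.88 to 5.95 on the other arrays, and limma gave it an array weight of 0.24 against 0.83 to 2.46. Of the 36 members, 16 were above the background limit on at least 3 arrays and 18 on none, and background compresses the differences of dim genes toward 0. The labels call the replicates separate samples and say no more, so the p-values reflect sample-to-sample spread that may be technical.

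The replication genes were higher in m4PTB than in vehicle kidneys with 1 exception. On the log2 scale of the arrays 35 of the 36 were higher (54.5% of all genes tested were) and Rfc3 was lower, and the median difference was 0.32 (a 1.25-fold higher signal) against 0.01 over all genes. By limma with Benjamini-Hochberg adjustment over all genes, 0 of the 36 and 0% of all genes had an adjusted p under 0.05 (1318 genes had an unadjusted one), and the members' adjusted p ran from 0.587 to 0.715. At an unadjusted p under 0.05 there were 19 members, all higher (52.8%), against 4.67% of all genes in that direction; 0 members and 2.56% of all genes were lower at that p. For 14 members (38.9%) every m4PTB array lay above every vehicle array, against 9.38% of all genes, and for 0 members every m4PTB array lay below, against 5.21%. These counts leaned on single arrays: without vehicle replicate 2 the unadjusted count was 31 (6.08% of all genes were higher at that p), without m4PTB replicate 1 it was 11 (2.62%), and without vehicle replicate 3 it was 14 (4.30%). The count of members with groups apart was 31 without vehicle replicate 2, against 17.6% of all genes then, and 27 without m4PTB replicate 3, against 14.9%. The median was 0.23 without vehicle replicate 3 and 35 members were still higher. In whole tissue, more replicating cells and more of each RNA per cell cannot be told apart.

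**Figure D1:**
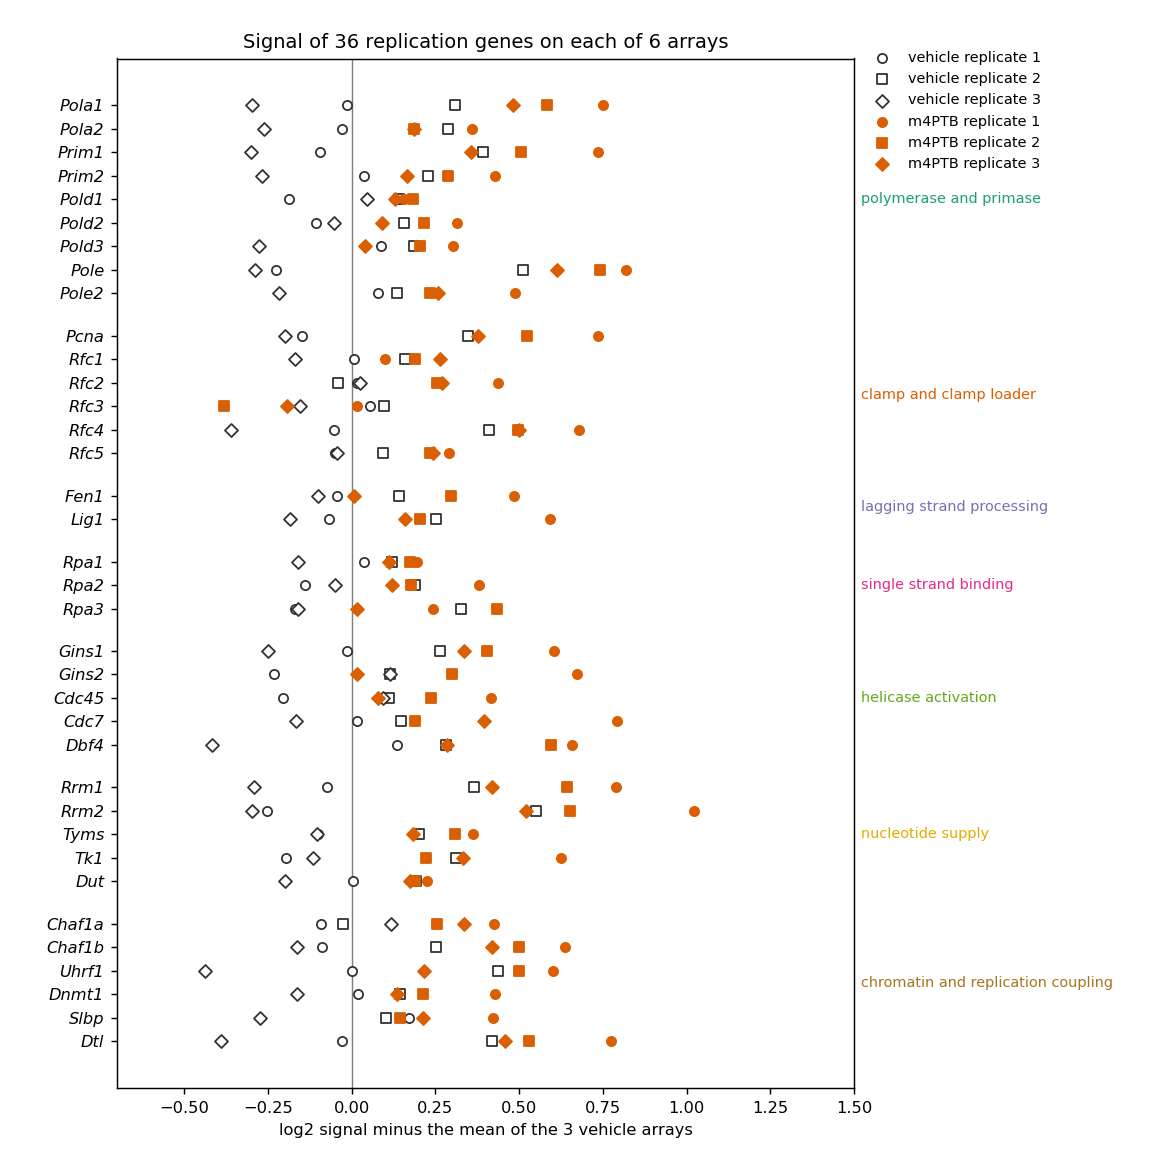
Log2 signal of each of the 36 genes on each array, minus the mean of the 3 vehicle arrays (open symbols vehicle, filled symbols m4PTB, shapes for the replicate number), ordered by role. Vehicle replicate 2 sits at the right of the vehicle points for 32 genes and m4PTB replicate 1 is the highest m4PTB array for 33.

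The arrays ranked alike for most members. Averaged over the 36 genes, log2 signal was 7.47, 7.75 and 7.34 on vehicle replicates 1, 2 and 3 and 8.02, 7.84 and 7.76 on m4PTB replicates 1, 2 and 3. The means were 7.52 ± 0.21 (SD, n = 3) and 7.87 ± 0.13 (SD, n = 3), and vehicle replicate 2 lay just below m4PTB replicate 3. Vehicle replicate 1 was below every m4PTB array for 33 members and vehicle replicate 3 for 33, but vehicle replicate 2 for only 15. The groups overlapped for 22 members, and for 17 of these they were apart once vehicle replicate 2 was set aside. That array was the highest vehicle array for 32 members, so leaving it out favours separation by construction. Vehicle replicate 3, the array of lowest weight, was the lowest of all 6 arrays for 25 members. Each role group had its highest vehicle mean on replicate 2.

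Injury marker signal, as a sum, ranked the arrays in the same order within each group as the replication genes did. The summed linear signal of 5 tubular injury markers (Havcr1, Lcn2, Krt20, Vcam1, Sox9) was 4900, 6201 and 3954 on vehicle replicates 1, 2 and 3, and 6973, 5252 and 4783 on m4PTB replicates 1, 2 and 3. The sum is mostly Havcr1 and Lcn2, and in vehicle kidneys Krt20, Vcam1 and Sox9 did not rank this way. Of the 5 genes, 2 were above the background limit on at least 3 arrays. The sums of the groups overlapped, from 3954 to 6201 in vehicle and from 4783 to 6973 in m4PTB kidneys, and m4PTB replicate 3 was below vehicle replicates 1 and 2. The markers differed in size of difference: Lcn2 was higher with m4PTB by 0.66 (limma, adjusted p = 0.685). Havcr1, Krt20, Vcam1 and Sox9 differed by 0.01, 0.25, 0.01 and -0.04. The groups overlapped for each of the 5 markers. Havcr1 is the gene of Kim1, by which the kidneys were picked for similar injury. Likeness of the groups in this sum is therefore not an independent result. The sums of 5 macrophage markers also overlapped, from 879 to 1118 and from 1025 to 1184. All 5 markers were higher with m4PTB, Csf1r by only 0.01, while 54.5% of all genes were higher. Of the 5 markers, Mrc1 (log2 difference of 0.62, limma adjusted p = 0.624, above the background limit on no array) and Cd14 (0.26, adjusted p = 0.685) had groups apart. Groups lay apart upward for 9.38% of all genes. Adgre1 was also above the background limit on no array. The endothelial marker Pecam1 was higher by 0.35 with groups apart (limma, adjusted p = 0.679). The other endothelial markers, Cdh5, Tek, Kdr and Emcn, differed by 0.19, 0.07, 0.02 and -0.03, with groups that overlapped. The sums of 5 endothelial markers overlapped, from 2812 to 3222 and from 2980 to 3246. The sums of 5 fibroblast markers overlapped, from 3256 to 4416 and from 4348 to 4557. The sums of 5 proximal tubule markers did not overlap and were lower with m4PTB, from 24740 to 25595 in vehicle and from 23816 to 24675 in m4PTB kidneys, although Lrp2 and Slc5a2 were slightly higher (0.02 and 0.03). The sums of 2 loop of Henle markers did not overlap either and were lower, from 12815 to 13632 in vehicle and from 11899 to 12541 in m4PTB kidneys. Their part in the difference of the replication genes was not tested.

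**Figure D2:**
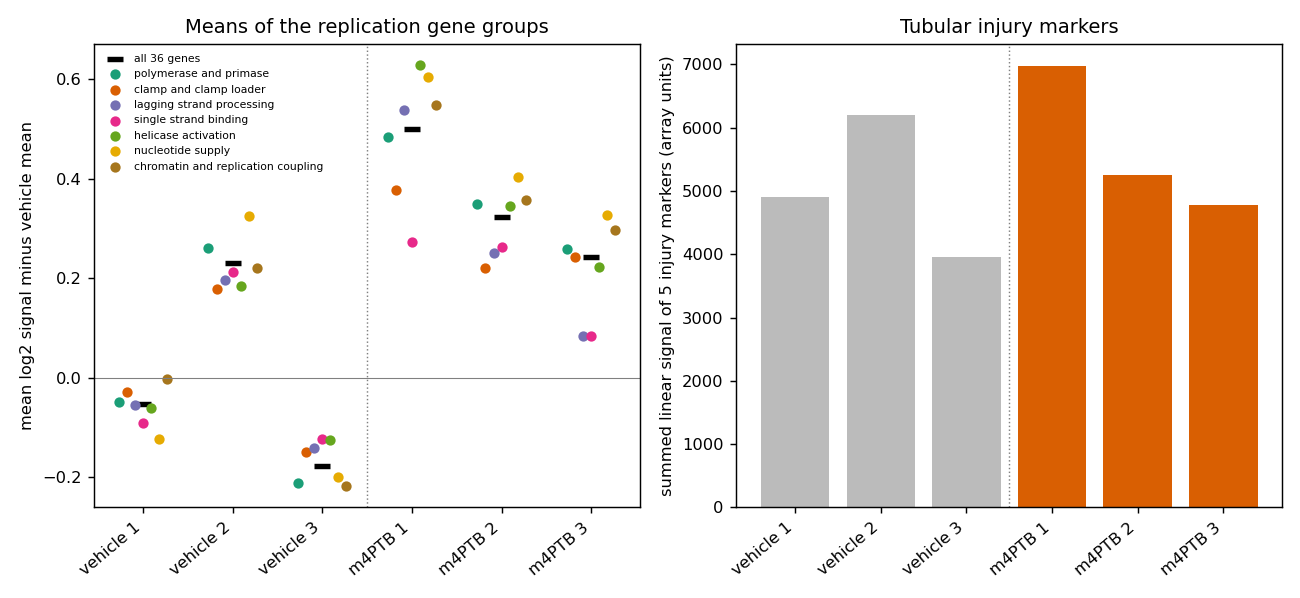
Left, mean log2 signal of each role group (points) and of all 36 genes (black bars) on each array, minus the vehicle mean. Right, bars of the summed linear signal of 5 tubular injury markers per array, in array units; vehicle replicate 2 and m4PTB replicate 1 are the highest of their groups in both panels.

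Polymerase and primase genes were all higher, 9 of 9, with a median log2 difference of 0.29. By limma 4 (44.4%) had an unadjusted p under 0.05, and 3 (33.3%) separated the groups. The shares of all genes in that direction were 4.67% and 9.38%. Pola1, the catalytic subunit of polymerase alpha, had log2 signals of 6.87, 7.19 and 6.59 on the vehicle arrays and 7.64, 7.47 and 7.37 on the m4PTB arrays. The lowest m4PTB array was above the highest vehicle array, and the difference was 0.60 with a standard error of 0.15 (limma, adjusted p = 0.587). Pole, the catalytic subunit of polymerase epsilon, read 6.77, 7.50 and 6.71 in vehicle and 7.81, 7.73 and 7.60 in m4PTB kidneys. Vehicle replicate 2 was far above the other vehicle arrays yet below all m4PTB arrays, and the difference was 0.72 with a standard error of 0.20 (limma, adjusted p = 0.618). Pold3, an accessory subunit of polymerase delta, read 8.35, 8.45 and 7.99 in vehicle and 8.56, 8.47 and 8.30 in m4PTB kidneys, which overlapped, and its difference of 0.18 had an interval of -0.12 to 0.48.

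Subunits of these enzymes differed in size of difference. The primase catalytic subunit Prim1 and its partner Prim2, which binds the template, differed by 0.53 and 0.29. Pola2, the second subunit of polymerase alpha, differed by 0.24, and Pole2, that of polymerase epsilon, by 0.33. Of the delta subunits, Pold1 (the catalytic subunit) differed by 0.16, Pold2 by 0.21 and Pold3 by 0.18. Within each array, Pola1 minus Pola2 was higher in m4PTB kidneys by 0.36, with no overlap between groups, and Prim1 minus Prim2 by 0.24, also without overlap. Pole minus Pole2 changed by 0.40 and Pold1 minus Pold2 by -0.05, and for each of these the groups overlapped. The 14 pairs compared in this way were picked after their values were seen. Two-sided exact permutation tests, which cannot go below 0.1 at this size, gave p = 0.1 for both pairs and 0.233 after adjustment over the 14. Of the 9 genes, Pola1, Pola2, Prim2, Pold1, Pole and Pole2 were above the background limit on no array and Prim1 on 1. Apart from Pold2, these pairs therefore compare dim signals.

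The sliding clamp and 4 of the 5 clamp loader subunits were higher, and the other subunit was lower. Pcna, the ring that tethers polymerases to DNA, was higher by 0.55 with a standard error of 0.16 (limma, adjusted p = 0.626), and its lowest m4PTB array was 0.03 above its highest vehicle array. A second probe set assigned to Pcna gave 0.56. Rfc2 read 7.89, 7.84 and 7.91 in vehicle and 8.32, 8.13 and 8.15 in m4PTB kidneys. For Rfc2 vehicle replicate 2 was the lowest vehicle array, and the groups were apart by 0.23. The difference of Rfc2 was 0.32 with a standard error of 0.08 (limma, adjusted p = 0.587). Rfc5 read 9.41, 9.55 and 9.41 in vehicle and 9.75, 9.69 and 9.70 in m4PTB kidneys, a difference of 0.26 with no overlap. Rfc4 differed by 0.56 and Rfc1, the large subunit, by 0.18.

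Rfc3 read 6.87, 6.91 and 6.66 in vehicle kidneys and 6.83, 6.43 and 6.62 in m4PTB kidneys. The groups overlapped, and its difference of -0.19 had an interval of -0.45 to 0.08 (limma, adjusted p = 0.700). It stayed between -0.31 and -0.09 under the other settings in which it was tested. Against each of the other subunits within the same array, Rfc3 was lower in m4PTB kidneys, the change being -0.37 against Rfc1, -0.51 against Rfc2, -0.74 against Rfc4 and -0.44 against Rfc5. None of these 4 overlapped between groups, and each had an exact permutation p of 0.1 (0.233 after adjustment over the 14 pairs). All 4 use the same Rfc3 values, and Rfc3 was singled out as the only member that was lower. They are therefore neither separate results nor support for its direction. Its signal was above the background limit on no array.

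**Figure D3:**
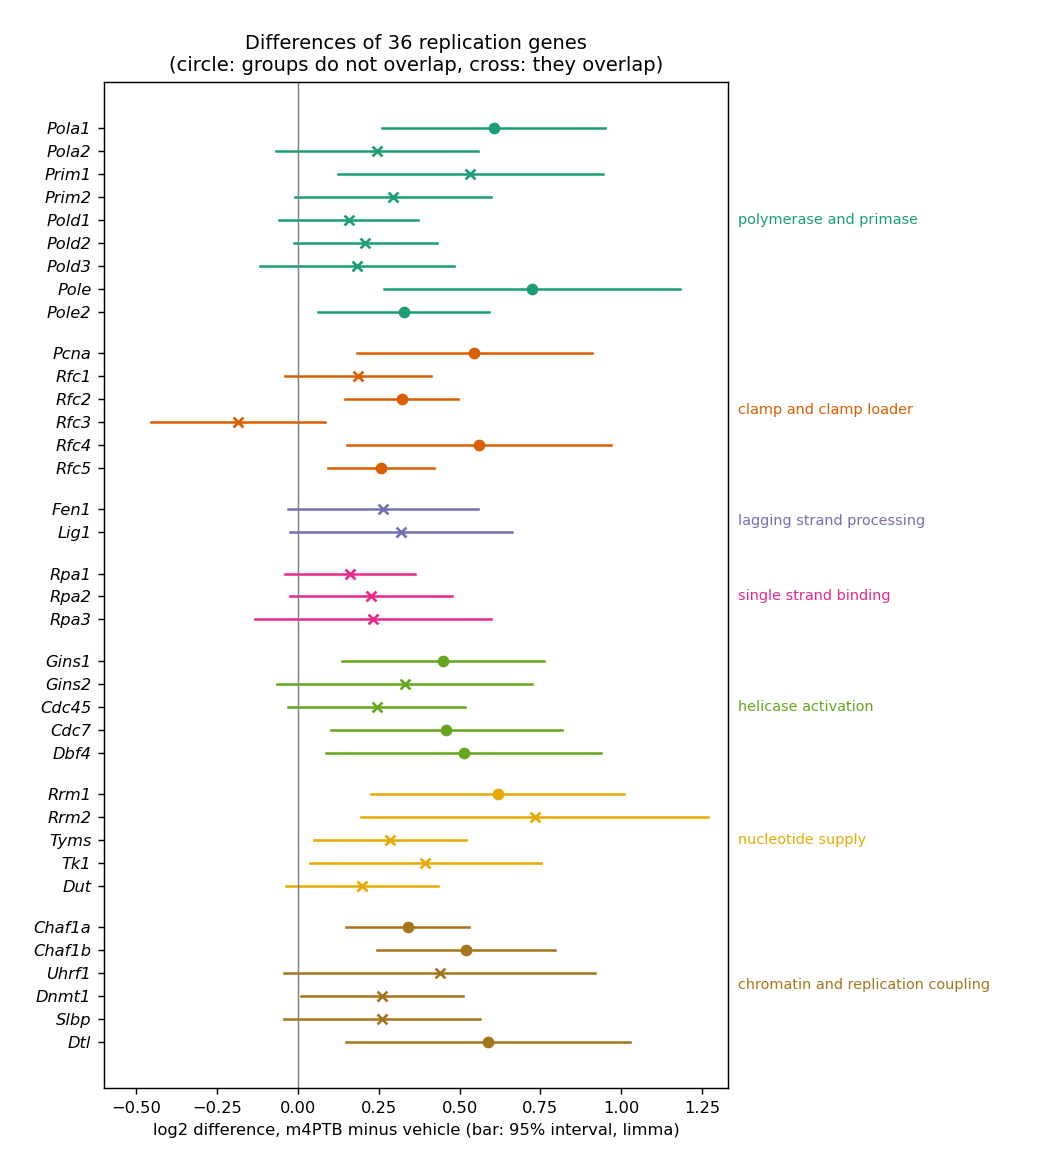
Log2 difference (m4PTB minus vehicle) of each gene with its 95% interval from limma. Circles mark genes whose groups do not overlap (14) and crosses the others (22). Rfc3 is the only gene left of 0, and its interval includes 0.

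Both genes that finish the lagging strand were higher, with a median of 0.29, and their groups overlapped. Fen1, the flap endonuclease, read 6.79, 6.98 and 6.74 in vehicle and 7.32, 7.13 and 6.84 in m4PTB kidneys, a difference of 0.26 with an interval of -0.03 to 0.56. Only m4PTB replicate 3 fell within the vehicle range. Lig1, the ligase that joins Okazaki fragments, read 7.38, 7.69 and 7.26 against 8.04, 7.65 and 7.60, a difference of 0.32 with an interval of -0.02 to 0.66. For Lig1, m4PTB replicate 1 stood alone above the vehicle range. A dimmer probe set assigned to Fen1 gave 0.00.

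The 3 subunits of replication protein A, which binds single-stranded DNA, differed by 0.16 (Rpa1), 0.23 (Rpa2) and 0.23 (Rpa3), and 0 of them had an unadjusted p under 0.05 by limma. Rpa1 read 8.49, 8.57 and 8.29 in vehicle and 8.65, 8.63 and 8.56 in m4PTB kidneys. Rpa2 read 7.63, 7.96 and 7.72 against 8.15, 7.94 and 7.89. Rpa3 read 6.32, 6.82 and 6.33 against 6.73, 6.92 and 6.50. For each of the 3, vehicle replicate 2 was above m4PTB replicate 3, so the groups overlapped. The largest of their upper interval bounds was 0.60, for Rpa3.

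Genes of helicase activation were higher for 5 of 5, with a median of 0.45. By limma 3 (60%) had an unadjusted p under 0.05, against 4.67% of all genes in that direction. Groups were apart for 3 (60%, against 9.38% of all genes). Gins1, a subunit of the GINS complex that joins the helicase, read 5.79, 6.07 and 5.55 in vehicle and 6.41, 6.21 and 6.14 in m4PTB kidneys, a difference of 0.45 with no overlap (limma, adjusted p = 0.638). Its partner Gins2 read 7.39, 7.74 and 7.74 against 8.30, 7.92 and 7.64, and m4PTB replicate 3 lay inside the vehicle range. Gins2 differed by 0.33 with an interval of -0.06 to 0.72. Cdc7, the kinase that fires origins, read 5.49, 5.62 and 5.31 against 6.26, 5.66 and 5.87, a difference of 0.46 in which m4PTB replicate 2 was 0.04 above vehicle replicate 2. Dbf4, the regulatory subunit of Cdc7, differed by 0.51, with 0.002 between the groups, and Cdc45, a part of the active helicase, by 0.24 with groups that overlapped.

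Nucleotide supply genes were higher for 5 of 5, with a median of 0.39. By limma 4 (80%) had an unadjusted p under 0.05, against 4.67% of all genes in that direction. Groups were apart for 1 (20%, against 9.38% of all genes). The largest difference of any member was that of Rrm2, but Pole was nearly equal (0.73 and 0.72). With cyclic loess scaling between arrays Pole was the larger (0.68 for Rrm2 and 0.70 for Pole). Rrm2, the subunit of ribonucleotide reductase that cells make in S phase, read 8.07, 8.87 and 8.03 in vehicle and 9.35, 8.98 and 8.85 in m4PTB kidneys. Vehicle replicate 2 was 0.03 above m4PTB replicate 3, and the difference was 0.73 (a 1.66-fold higher signal) with a standard error of 0.23 (limma, adjusted p = 0.645). It was 0.58 without vehicle replicate 3. Rrm1, the large subunit, read 8.53, 8.97 and 8.32 against 9.40, 9.25 and 9.03, with groups 0.05 apart and a difference of 0.62 (standard error 0.17) (limma, adjusted p = 0.618). Both subunits were above the background limit on all 6 arrays. Rrm2 minus Rrm1 overlapped between groups (difference of 0.11, exact permutation p = 0.4). Tk1, the cytosolic thymidine kinase, differed by 0.39 and Tyms, thymidylate synthase, by 0.28. A second probe set assigned to Tk1, of similar brightness, gave 0.27. With the lowest probe set per gene the median of this role group was 0.28. Dut, which removes dUTP, read 7.54, 7.73 and 7.34 against 7.76, 7.72 and 7.71. Its groups overlapped through vehicle replicate 2, and its difference of 0.20 had an interval of -0.04 to 0.43.

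Chromatin genes that follow the fork were higher for 6 of 6, with a median of 0.39. By limma 4 (66.7%) had an unadjusted p under 0.05, against 4.67% of all genes in that direction. Groups were apart for 3 (50%, against 9.38% of all genes). Chaf1b, the middle subunit of chromatin assembly factor 1, read 7.53, 7.87 and 7.45 in vehicle and 8.25, 8.11 and 8.03 in m4PTB kidneys. All m4PTB arrays were at least 0.17 above the vehicle arrays, and the difference of 0.52 with a standard error of 0.12 had the smallest unadjusted p of any member (0.00251 by limma, adjusted p = 0.587). Chaf1a, its large subunit, read 6.86, 6.93 and 7.07 against 7.38, 7.21 and 7.29, a difference of 0.34 with no overlap. Here vehicle replicate 3 was the highest vehicle array, unlike for most members, and without it the difference was 0.40.

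Dtl, the adaptor that marks proteins for destruction on DNA that carries the clamp, differed by 0.59 with groups apart by 0.04. Uhrf1, which reads newly copied methylated DNA, and the maintenance methyltransferase Dnmt1 differed by 0.44 and 0.26 with groups that overlapped. Slbp, the binding protein of histone mRNA stem-loops, read 7.50, 7.43 and 7.06 in vehicle and 7.75, 7.47 and 7.54 in m4PTB kidneys. Vehicle replicate 1 was above m4PTB replicate 2, and the difference of 0.26 had an interval of -0.04 to 0.56. The other probe sets assigned to Slbp gave 0.11 and -0.15, so its direction depends on the probe set.

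Other genes of the pathway, whose lists were also drawn up with earlier results of these data known, were mostly higher too. Of 32 further fork genes 31 were higher (54.5% of all genes were), with a median of 0.22. By limma 12 had an unadjusted p under 0.05, all higher (37.5%, against 4.67% of all genes). Top2a, a topoisomerase also used in mitosis, differed by 0.90, and Mms22l, of fork repair, by 0.37, while Top3a differed by 0.01 with an interval of -0.15 to 0.17. Of 21 further genes of replication-coupled chromatin and S phase control 21 were higher, with a median of 0.23 and 8 (38.1%) at an unadjusted p under 0.05. Fbxo5, an inhibitor of the anaphase-promoting complex, differed by 0.52 and the licensing factor Cdt1 by 0.27. Ddb1, a general ubiquitin ligase subunit, differed by 0.03 with an interval of -0.11 to 0.18. None of these lists held a gene with an adjusted p under 0.05.

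Of 30 genes of general nucleotide metabolism, 20 were higher (66.7%, against 54.5% of all genes) and 10 lower, with a median of 0.08. By limma 3 had an unadjusted p under 0.05, all higher (10%, against 4.67% of all genes). Groups lay apart upward for 6 of the 30 (20%, against 9.38% of all genes). Ada, adenosine deaminase, and Dck, deoxycytidine kinase, differed by 0.28 and 0.32, each with groups apart, and Dhodh, of pyrimidine synthesis, by 0.01. Among 13 licensing and helicase genes all were higher with a median of 0.33. Of these 13, 7 had an unadjusted p under 0.05 by limma (53.8%), near the 52.8% of the 36 members. Groups lay apart for 3 of the 13 (23.1%), against 38.9% of the 36 members. The helicase subunits Mcm6 (0.68) and Mcm2 (0.37) had the smallest unadjusted p of that list, and Orc5 of the origin recognition complex, at 0.01, the largest. The 15 mitotic genes had a median of 0.68, with Bub1b at 0.66, Cdk1 at 0.86 and Birc5 at 0.41, the last having the largest p of the list. All 15 had an unadjusted p under 0.05 by limma, and 13 had groups apart (86.7%). All of these lists come from the same 6 arrays, and whether they differ from the 36 genes was not tested.

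**Figure D4:**
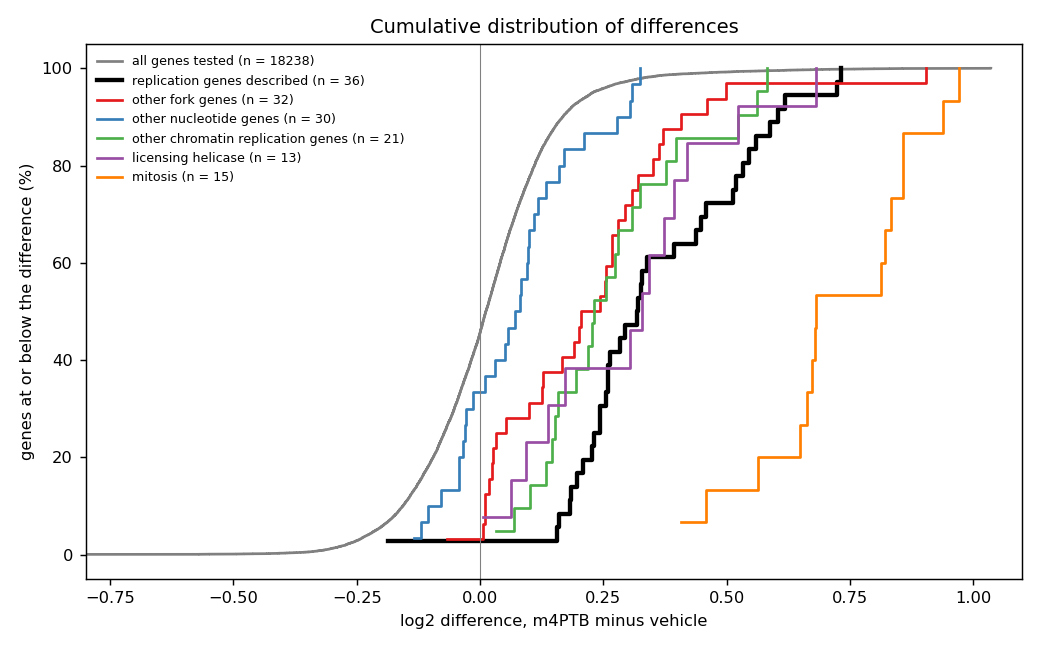
Cumulative share of genes (%) at or below a given log2 difference (m4PTB minus vehicle), for all 18238 genes, the 36 replication genes and 5 further lists. The replication genes lie to the right of all genes (medians of 0.32 and 0.01), with mitotic genes farther right (0.68) and general nucleotide genes closer to 0 (0.08).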

How the data were processed

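Whole-kidney total RNA was measured on 6 Affymetrix Mouse Gene 1.0 ST arrays, a type named per the file headers. Per the submitters' processing notes, the deposited log2 signals come from RMA (Expression Console 1.1), which equalizes the arrays' distributions and would hide a change common to most genes. The table has 35556 probe sets, of which 25004 carry 1 gene symbol. Symbols were updated by accession through RefSeq's table for GRCm38.p6 (22267 matched, 2268 replaced). The 6 signal columns of a further table match no sample label and were not used.

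Control probe sets were left out. A probe set entered with log2 signals of 5 or more on 3 or more arrays, and the one of highest mean stood for its gene, leaving 18238 genes. The m4PTB effect was estimated in limma 3.58.1 (R 4.3.3; lmFit, eBayes, no covariate), with Benjamini-Hochberg adjustment over all genes; intervals are 95%. The steps were tested on simulated data with noise drawn independently for each gene and array, which does not cover shifts of a whole array. Recovery was required only for a planted difference larger than that of any member, so it does not speak to differences of their size. The background limit was computed on each array from 5222 negative controls. Of each role group the text gives every array for the 2 members of smallest and the 1 of largest unadjusted p, and for any member opposite in sign to its group, and differences for the rest; in the further lists it names genes by the same p ranks. The members and lists were chosen with earlier results of these data known. Pairing by replicate number was checked: deviations of same-numbered samples correlated at -0.13, -0.05 and -0.08. No deviation shared by number was seen, but such correlations cannot exclude that samples were handled in pairs. The main fit was unpaired. Alternatives were another scaling, filter, probe set, weighting, variance model and symbol source, a replicate block, and each array left out in turn.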

Additional observations from a re-analysis of the deposited data

How the results depend on the processing

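By limma 0 genes had an adjusted p under 0.05 in any of the 15 alternatives tested, and the members' median difference stayed between 0.23 and 0.39 with no more than 1 further member turning lower. With each array's median subtracted the median of all genes was -0.05 and that of the members 0.26, and of 1505 genes with unadjusted p under 0.05 there were 441 higher, against 852 of 1318 as reported. With the dim-signal filter raised to the background limit, 16 members were tested, of which 16 were higher, 11 had an unadjusted p under 0.05 and 6 had groups apart, against 6.83% and 12.3% of 8083 genes in that direction (772 genes in both directions at that p); fewer genes were tested, and a member can pass this filter through its high group alone. Leaving out each array in turn moved the members' count at an unadjusted p under 0.05 between 11 and 31 (2.62% to 6.08% of all genes were higher at that p), the count with groups apart between 14 and 31 (13.96% to 17.6%), and the count over all genes in both directions between 843 (without m4PTB replicate 1) and 1807; fewer arrays also make it easier for groups to lie apart. With the replicate block 23 members were higher at an unadjusted p under 0.05, against 3.93% of all genes (1105 genes in both directions). Same-numbered samples did not correlate best with each other. Trended and robust variances also gave 23 members (5.52% of all genes). With each array's median subtracted there were 17 (2.42%), and 12 members had groups apart (4.24%). Slbp turned to -0.15 with its lowest probe set.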

Other observations

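A pair of genes related to Rrm2 and Tk1 had differences below 0 whose intervals include 0. Rrm2b, the ribonucleotide reductase subunit used in resting and damaged cells, read 7.30, 7.27 and 7.28 in vehicle and 7.15, 7.22 and 7.24 in m4PTB kidneys, and its log2 difference was -0.08 with an interval of -0.23 to 0.07. Tk2, the mitochondrial thymidine kinase, read 7.41, 7.42 and 7.53 against 7.28, 7.34 and 7.35, a difference of -0.13 with an interval of -0.29 to 0.03. For both genes every m4PTB array was below every vehicle array, as for 5.21% of all genes, and neither passed limma's test (adjusted p of 0.739 and 0.686). Within each array, Rrm2 minus Rrm2b was higher in m4PTB kidneys by 0.81 and Tk1 minus Tk2 by 0.53, but the groups overlapped through vehicle replicate 2 (exact permutation p = 0.2 for each, 0.35 after adjustment over 14 pairs, with 0.1 the smallest possible). Both pairs were picked after their values were seen, and the dim signals of Rrm2b and Tk2 were above the background limit on no array.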
